A study of Drosophila melanogaster with 10 samples.

Results

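Homeobox genes encode transcription factors that bind DNA through a homeodomain, and combinations of them help to set the identity of neurons and the targets of their processes. The 43 genes described here are homeobox genes of *Drosophila melanogaster* chosen by symbol, without *Lim1*, *ct*, *acj6*, *pros* and *repo*, from the 17757 genes of the count files. By family they divide into 16 ANTP-class genes, 10 paired-class (PRD) genes, 5 TALE genes, 4 LIM-homeodomain genes, 4 POU genes, 2 zinc-finger homeobox genes, 1 ONECUT gene of the CUT class and 1 SINE-class gene. TALE proteins such as Exd and Hth act as partners of other homeodomain proteins, and Hth holds Exd in the nucleus. LIM, POU and CUT proteins carry a further domain beside the homeodomain, and several paired-class genes are known from the progenitors of the optic lobe.

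T4 and T5 neurons are the first direction-selective cells of the fly motion pathway, and each type has 4 subtypes, a to d, with dendrites and axons oriented for 4 directions of motion. They were labelled in animals that carried *SS00324-Gal4*, a split-Gal4 line that drives expression in T4/T5 neurons, together with UAS-mCD8::GFP, and GFP+ cells were sorted from the brains of pupae of both sexes (the number of animals per library is not given in the sources used here) at 5 stages of pupal development, 24, 36, 48, 60 and 72 h APF (after puparium formation). Every group shares this genotype, the groups are labelled by age, and 2 libraries were made at each stage. The libraries held 12798989 to 62530395 unique molecular identifiers (UMIs), each of which marks 1 captured mRNA molecule. Depth also differed between stages, with medians of 6929 and 5253 UMIs per barcode at 60 h and 2981 and 4065 at 72 h APF. The part of library preparation in differences between stages was not tested. The clusters called T4a to T5d resemble these subtypes in their marker genes, and none of the 43 genes took part in the clustering or the naming.

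The named T4/T5 clusters comprised 46351 cells, 1264 to 8501 in a library, with a median depth of 2986 to 8006 UMIs per cell. *Lim1*, a marker of T4/T5 neurons, was found in 91.3 to 99.7% of them, whereas the glial gene *repo* was found in at most 0.317%. The sort also held 552 cells of glia-like clusters and 3294 cells of other clusters low in T4/T5 markers, mostly neurons by *elav* (78.7 to 98.0% of the cells of a library). The highest share of T4/T5 cells with a UMI of a glial marker was 1.13%, for *Eaat1*. Glia-like cells were few, so this does not bound what free RNA from the other sorted cells can add. Of the barcode sequences, 625 occurred in 2 or more libraries.

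A gene was called detected if at least 5% of the cells of at least 1 class had a UMI in both libraries of at least 1 stage. By this rule 6 of the 43 genes were detected: *onecut*, *hth*, *exd*, *pdm3*, *zfh2* and *NK7.1*. They comprise 2 of the 5 TALE genes, 1 of the 4 POU genes, 1 of the 2 zinc-finger homeobox genes, the ONECUT gene and 1 of the 16 ANTP-class genes, and no gene of the PRD, LIM or SINE classes. The next gene in order was *scro*, which reached 4.49% of T5d cells in the lower of the libraries at 36 h APF. The 6th detected gene by the same measure, *zfh2*, reached 15.9% of T4b cells at 24 h APF, so that no gene lay between 4.49% and 15.9%. The number detected was 7 at a limit of 2% of cells, 6 at 10% and 6 after every cell had been thinned to 2000 UMIs.

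**Figure D1:**
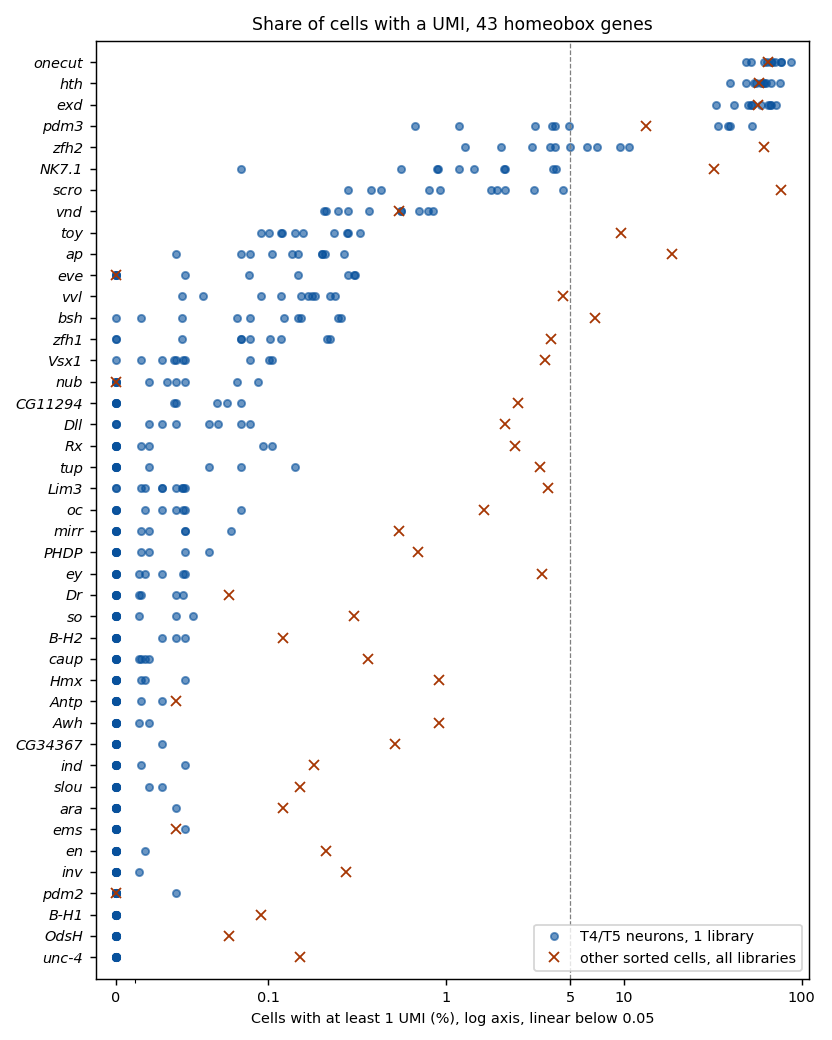
Share of cells with at least 1 UMI (%, log axis that is linear below 0.05) for the 43 homeobox genes, ordered by their share in all T4/T5 neurons. Circles are the T4/T5 neurons of 1 library, crosses are the other sorted cells of all libraries and the dashed line marks 5%; *onecut*, *hth* and *exd* lie above 30% in every library, whereas most genes lie below their share in the other sorted cells.

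*onecut*, *hth* and *exd* were found throughout T4/T5 neurons at every stage. *onecut* (FBgn0028996, chromosome 4, 598555 to 607649, minus strand; BDGP6.54) encodes a factor with a cut domain and a homeodomain that is known as a gene of the nervous system. Its share of T4/T5 cells with a UMI was 67.7% and 61.3% in the libraries of 24 h APF, 76.4% and 48.6% in those of 36 h, 63.5% and 67.1% in those of 48 h, 86.5% and 76.0% in those of 60 h, and 52.1% and 70.2% in those of 72 h APF. In the glia-like cells, which were shallower (median 710 to 2005 UMIs), between 2.33% and 26.4% had a UMI of *onecut*. Its level in UMIs per 1000000 UMIs of the sum (CPM) was 202 ± 10.0, 232 ± 64.2, 210.0 ± 26.4, 290.1 ± 11.9 and 296 ± 35.9 at the stages in order (mean ± SD, n = 2). At 36 h APF the libraries differed most, with 277 and 186 CPM.

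*hth* (FBgn0001235, chromosome 3R, 10507561 to 10639568, minus strand) was found in 39.4 to 75.6% of the T4/T5 cells of a library. Its level was 208 ± 5.03, 211 ± 10.1, 214 ± 19.5, 262 ± 1.01 and 214 ± 16.3 CPM at 24, 36, 48, 60 and 72 h APF. The gene of a microRNA lies within its span on the same strand. *exd* (FBgn0000611, chromosome X, 15992468 to 15996509, plus strand), the partner of *hth*, was found in 33.0 to 71.2% of the T4/T5 cells of a library. Its level was 206 ± 18.4, 193 ± 10.4, 179 ± 48.6, 145 ± 10.2 and 139 ± 7.54 CPM at the same stages. Over the 80 sums of a class in a library, *onecut* ranged from 172 to 360 CPM, *hth* from 164 to 300.0 and *exd* from 117 to 231, so that no class lacked any of these genes.

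These genes were about as frequent in the other sorted cells, and less frequent in the shallower glia-like cells. The other sorted cells had a UMI of *onecut* in 64.9% of cells, of *hth* in 57.8% and of *exd* in 56.9%, compared with 64.7%, 56.5% and 53.0% of T4/T5 cells. Of the glia-like cells 11.78% had a UMI of *onecut*, 19.93% of *hth* and 16.85% of *exd*. In these cells *hth* reached 282 CPM at the most and *exd* 138 CPM.

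**Figure D2:**
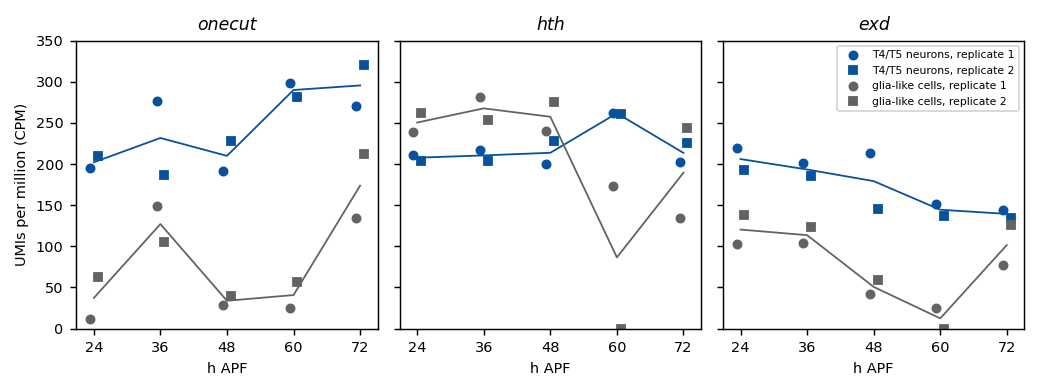
Levels of *onecut*, *hth* and *exd* (CPM) against stage (h APF) in T4/T5 neurons (blue) and glia-like cells (grey), with circles and squares for the libraries of replicates 1 and 2 and lines through their means. In T4/T5 neurons *onecut* lies between 186 and 321 CPM, *hth* between 200 and 263 and *exd* between 134 and 219.

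Changes between stages were tested on the sums over all T4/T5 cells of a library, in a fit that scales libraries by the trimmed mean of M-values (TMM). This scaling matters here: with total UMIs in its place, the median change over all tested genes from 24 to 72 h APF was −0.54 (log2) instead of 0.03, so CPM levels and fitted changes of late stages are not on 1 scale. A gene was called with an adjusted p under 0.05 (edgeR's quasi-likelihood test, Benjamini-Hochberg adjustment over all genes tested) and a change of at least 2-fold. Of the 11 members that could be tested, 1 was called between adjacent stages, *pdm3*, at 36 against 24 h, 60 against 48 h and 72 against 60 h APF. Among all 8093 genes tested, 3.71%, 10.9%, 12.3% and 6.59% were called at the adjacent steps in order. From 24 to 72 h APF 4 of the 11 were called, *pdm3* and *onecut* higher and *NK7.1* and *scro* lower, beside 42.7% of all genes.

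From 24 to 72 h APF *onecut* rose by 1.11 ± 0.23 on the log2 scale (± SE, adjusted p = 0.00311). With total UMIs as library size its change was 0.55 and did not pass (adjusted p = 0.0598). For *hth* the fitted change was 0.61 ± 0.15 (adjusted p = 0.00888), under the 2-fold limit, and 0.04 with total UMIs (adjusted p = 0.852); it missed the threshold without 24 h replicate 1 (0.0783) or 2 (0.0589). The direction for *exd* depended on the scaling, with 0.02 ± 0.22 (adjusted p = 0.95) by TMM and −0.56 with total UMIs (adjusted p = 0.0457).

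*pdm3* changed most among the members. It encodes a POU-domain factor known from odorant receptor choice and axon targeting in olfactory neurons, and lies on chromosome 2R (FBgn0261588, 8327490 to 8396280, plus strand), where its span holds 2 further genes on the same strand and 8 on the other. T4/T5 cells held 20 and 105 *pdm3* UMIs in all in the libraries of 24 h APF, 63 and 214 in those of 36 h, 193 and 321 in those of 48 h, 2184 and 1728 in those of 60 h, and 2554 and 7559 in those of 72 h APF. The level was 1.16 and 2.53 CPM in the libraries of 24 h, 7.51 and 9.79 in those of 36 h, 10.3 and 9.03 in those of 48 h, 98.6 and 105 in those of 60 h, and 204 and 238 in those of 72 h APF. Values of the libraries of 36 and 48 h APF overlap, whereas those of any other pair of stages do not.

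The share of T4/T5 cells with a *pdm3* UMI was 0.668% and 1.19% in the libraries of 24 h APF, 3.96% and 3.15% in those of 36 h, 4.93% and 4.10% in those of 48 h, 38.4% and 33.7% in those of 60 h, and 39.5% and 52.4% in those of 72 h APF. Thinned to 2000 UMIs per cell, the shares were 0.179% and 0.649% at the first stage, 15.8% and 17.4% at 60 h, and 30.5% and 33.3% at the last. The shares of the late stages were thus the higher ones at equal depth too. In the fit *pdm3* rose by 2.21 ± 0.33 (log2, adjusted p = 0.0059) from 24 to 36 h, by 3.56 ± 0.32 (adjusted p = 0.000203) from 48 to 60 h and by 1.27 ± 0.29 (adjusted p = 0.0311) from 60 to 72 h APF. Its change from 36 to 48 h was 0.36 ± 0.30 (adjusted p = 0.484). Over the whole period it rose by 7.39 ± 0.39 (adjusted p = 2.01e-06), by 8.17 without 24 h replicate 2, and by 3.53 over all barcodes past the stress limits (adjusted p = 0.00145).

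The early and late steps of *pdm3* rest on less than the step at 60 h. The change from 24 to 36 h was 2.03 without 36 h replicate 2 (adjusted p = 0.0559), and that from 60 to 72 h missed the threshold without 36 h replicate 1 (adjusted p = 0.0539) or 2 (0.0533), 60 h replicate 1 (0.244) or 2 (0.18), or 72 h replicate 1 (0.0515). Other sorted cells held 58.8 to 284 CPM of *pdm3* up to 60 h APF and 62.1 and 71.6 CPM at 72 h, and when all barcodes past the stress limits were counted the first step turned to −0.28 (adjusted p = 0.861). The part that RNA from those cells has in the low early values of T4/T5 neurons was not tested. In glia-like cells 0 to 4.84% had a *pdm3* UMI up to 60 h APF, and 21.4% and 18.9% at 72 h.

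**Figure D3:**
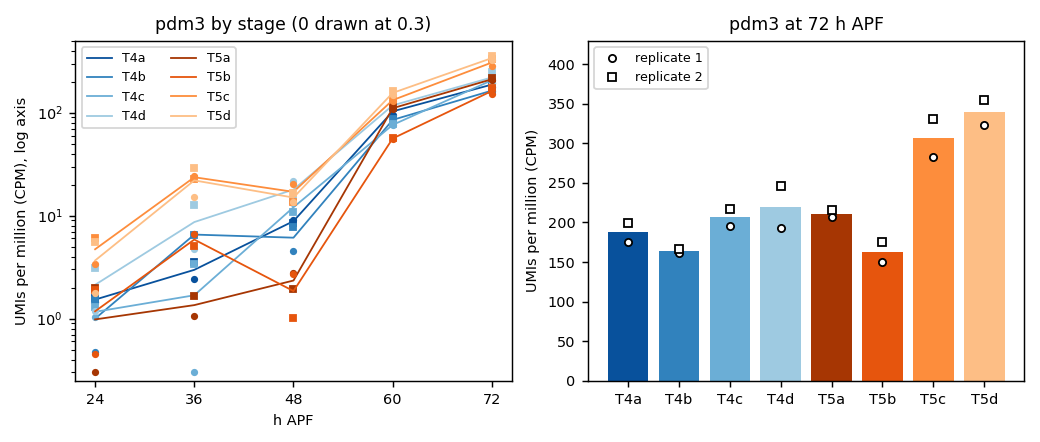
Level of *pdm3* (CPM) in the T4/T5 subtypes, on the left against stage (h APF, log axis, with 0 drawn at 0.3) and on the right at 72 h APF on a linear axis. Circles and squares are the libraries of replicates 1 and 2, and lines and bars are their means; all classes rise between 48 and 60 h, and at 72 h T5c and T5d, from 283 to 356 CPM, lie above the other classes.

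Differences between classes were tested on the 80 sums, in 1 fit with the library as a block, and 7 members passed the filter on low sums: the 6 detected genes and *scro*. Between the a,b and the c,d subtypes 3 of the 7 were called at 24 h APF (*zfh2* higher, *NK7.1* and *pdm3* lower in a,b), 1 at 36 h (*pdm3*), 2 at 48 h (*NK7.1* and *pdm3*), 1 at 60 h (*NK7.1*) and 1 at 72 h (*NK7.1*). Of all 7137 genes tested, 3.85%, 4.13%, 5.67%, 4.95% and 4.34% were called at these stages. Over the 7 members the median difference was −0.06, −0.10, −0.02, −0.07 and −0.15 (log2).

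The level of *pdm3* was higher in the c,d than in the a,b subtypes at each stage. On the log2 scale the difference was 2-fold or more up to 48 h APF and less at 60 and 72 h. The gap in CPM was widest at 72 h. At 24 h the share of cells with a UMI was highest in T5c, with 2.39 ± 0.594%. This lay below the highest share in glia-like cells up to 60 h, so the 24 h difference is not read as a difference in expression. In a,b and c,d cells its level was 1.17 ± 0.754 and 2.65 ± 1.24 CPM at 24 h APF, 4.52 ± 0.101 and 13.4 ± 3.92 at 36 h, and 5.06 ± 0.216 and 15.3 ± 2.33 at 48 h. At 60 h it was 86.3 ± 4.0 and 121 ± 4.43 CPM, and at 72 h 182 ± 12.5 and 269 ± 30.6. At 48 h APF every c or d sum, from 10.9 to 21.6 CPM, lay above every a or b sum, from 1.01 to 9.11. The fitted difference, a,b minus c,d, was −1.08 ± 0.28 at 24 h (adjusted p = 0.00227), −1.58 ± 0.27 at 36 h (adjusted p = 1.76e-06) and −1.94 ± 0.15 at 48 h (adjusted p = 5.71e-18). It was −0.41 ± 0.05 at 60 h (adjusted p = 2e-09) and −0.50 ± 0.04 at 72 h (adjusted p = 4.71e-18), both under 2-fold. Without 36 h replicate 2 the value at 36 h was 0.11 (adjusted p = 0.99), in a fit where the remaining library of that stage held 0 *pdm3* UMIs in T4c. Without 24 h replicate 2 that at 24 h was −2.12 (adjusted p = 0.104).

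The contrast of *pdm3* differed between the types. In T5 neurons the c,d subtypes held 22.9 ± 4.13 CPM at 36 h APF and the a,b subtypes 4.03 ± 0.615, whereas in T4 neurons the values were 5.50 ± 4.45 and 4.97 ± 0.312. At 72 h APF T5c,d cells held 323 ± 28.3 CPM and T5a,b cells 186 ± 13.4, compared with 213 ± 26.1 and 176 ± 10.5 in T4c,d and T4a,b. The difference between T4 and T5 in the a,b minus c,d contrast was 2.92 ± 0.50 at 36 h (adjusted p = 2e-05), 2.14 ± 0.33 at 48 h (adjusted p = 4.9e-07) and 0.84 ± 0.11 at 60 h (adjusted p = 3.7e-09), and 0.48 ± 0.08 at 72 h (adjusted p = 2.44e-06). This test called 0.757%, 0.715%, 1.53%, 1.93% and 1.93% of all genes with a 2-fold change at the 5 stages, and 2.17%, 2.34%, 5.44%, 6.33% and 6.19% by adjusted p alone. It was run with the main settings only, and not with a library left out.

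Within the pairs of subtypes, *pdm3* was lowest in T5b at 60 h APF, whereas at 72 h T5b and T4b, with 161 and 167 CPM, overlapped. At 60 h APF T5b held 55.7 and 56.6 CPM in the libraries and T5a 108 and 113. At 72 h T5b held 150.3 and 175, T5a 206 and 216, T5c 283 and 331, and T5d 323 and 356. The a minus b difference was −1.47 ± 0.39 at 36 h (adjusted p = 0.0106), the only member called between a and b subtypes at any stage, where 0.911% of all genes were called (0.939%, 1.56%, 1.77% and 1.43% at 24, 48, 60 and 72 h). It pointed the other way at 60 h, 0.64 ± 0.08 (adjusted p = 2.84e-10), and at 72 h, 0.28 ± 0.06 (adjusted p = 0.000155), both under 2-fold. The call at 36 h rests on few UMIs, 2 and 10 in T4a, 1 and 4 in T5a, 7 and 23 in T4b and 10 and 16 in T5b, and was lost without either library of that stage, with adjusted p-values of 0.11 and 0.289. For the c and d subtypes, T4d at 60 h APF includes a cluster of 409 cells that was mixed by transcription factors. The c minus d difference was −1.11 ± 0.27 at 36 h (adjusted p = 0.00689), where 0.729% of all genes were called (0.897%, 1.13% and 1.01% at the later stages), and −0.44 ± 0.08 at 60 h (adjusted p = 7.53e-06). Without 36 h replicate 2 the former was −2.96 (adjusted p = 0.527).

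*NK7.1* (FBgn0024321, chromosome 3R, 14329413 to 14372951, minus strand) is an NK-like gene of the ANTP class. Among the T4/T5 classes at 24 h APF its levels were highest in the c subtypes. At 24 h APF T5c cells held 77 and 157 UMIs, or 43.9 and 49.6 CPM, and T4c cells 36 and 101 UMIs, or 18.8 and 18.5 CPM. The 6 other classes lay between 0 and 11.4 CPM, so that neither c class overlapped with them. A UMI was found in 19.0% and 17.6% of T5c cells and in 9.54% and 7.67% of T4c cells, compared with 0 to 4.20% in the other classes. In cells thinned to 2000 UMIs the shares of T5c were 8.05% and 8.64%, those of T4c 3.68% and 3.74%, and the highest of another class was 1.82%.

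The a,b minus c,d difference of *NK7.1* at 24 h APF was −2.15 ± 0.23 (log2, adjusted p = 1.24e-12) and the c minus d difference 2.26 ± 0.23 (adjusted p = 2.43e-12), at a stage where 0.953% of all genes were called between c and d. Both kept their call in all 15 alternative fits. The a,b minus c,d contrast was smaller in T4 than in T5 neurons, with a difference of 1.79 ± 0.47 (adjusted p = 0.0158) in the main fit. No alternative fit was run for this difference. For the c minus d contrast the difference between the types was −0.13 ± 0.53 (adjusted p = 1), a test chosen after the values had been seen, which called 0.028% of all genes. Outside T4/T5 neurons *NK7.1* was higher: glia-like cells held 124 and 187 CPM at 24 h APF and other sorted cells 108 and 131, with a UMI in 36.6% and 34.8% of the latter. In 1 cluster of 187 such cells of 24 h APF 64.2% had a UMI. The share in T5c, the highest of the classes, was below that of the glia-like cells in both libraries. The difference of the a,b minus c,d contrast between the types is therefore not read as a difference in expression. The a,b minus c,d and c minus d contrasts come from the same classes. They are given as differences in UMIs, and whether they are differences in expression was not tested. The share was 0% and 1.08% in T5a and 3.44% and 4.20% in T5d of the same libraries, and the part of RNA from other cells in these values was not tested.

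After 24 h APF *NK7.1* fell to few UMIs. Its level over all T4/T5 cells was 9.31 ± 1.06, 4.22 ± 0.572, 3.41 ± 2.41, 2.05 ± 0.162 and 0.891 ± 0.920 CPM at the stages in order, and it fell by 2.68 ± 0.63 (log2, adjusted p = 0.00623) from 24 to 72 h APF. This change was −4.60 without 72 h replicate 2 (adjusted p = 0.00238) and −2.13 without 72 h replicate 1 (adjusted p = 0.0138), and over all barcodes past the stress limits it was −1.38 and missed the threshold (adjusted p = 0.0803). T5c was still the highest class at 36 h, with 10.1 and 21.1 CPM from 10 and 47 UMIs, above every other class. At 48 h T5c held 7.27 and 11.6 CPM, T5d 4.84 and 7.52, T4c 0.401 and 8.76, and T4d 0 and 9.24, whereas the a and b classes lay between 0.392 and 2.62. At 72 h APF replicate 1 had 3 *NK7.1* UMIs in all T4/T5 cells and replicate 2 had 49. The a,b minus c,d difference was −2.51 ± 0.32 at 48 h (adjusted p = 5.32e-10), −1.47 ± 0.48 at 60 h (adjusted p = 0.0175) and −1.93 ± 0.60 at 72 h (adjusted p = 0.0109). These late calls depend on single libraries. The difference at 48 h was −0.39 without 48 h replicate 2, in a fit where the remaining library held no *NK7.1* UMI in T4d. In pooled cells the c,d level lay above the a,b level in each 48 h library, at 6.15 ± 4.47 against 1.18 ± 0.716 CPM. The call at 60 h was lost without either library of its stage. The difference at 72 h was −0.31 without 72 h replicate 2.

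*zfh2* (FBgn0004607, chromosome 4, 501810 to 540874, plus strand), a zinc-finger homeobox gene known from the patterning of the wing, differed between subtypes at 24 h APF. T4a held 43.9 and 32.8 CPM, T4b 44.9 and 45.3, T5a 37.6 and 26.4, and T5b 25.1 and 37.4. T4c held 6.79 and 8.23 CPM, T4d 6.69 and 11.8, T5c 13.7 and 18.7, and T5d 14.1 and 19.8. The groups did not overlap, and the a,b minus c,d difference was 1.48 ± 0.11 (log2, adjusted p = 1.36e-18). It kept its call in all 15 alternative fits, with values from 1.30 to 1.91. The fitted contrast was larger in T4, with 41.2 ± 4.44 CPM in a,b and 8.46 ± 2.45 in c,d, than in T5, with 31.5 ± 0.135 and 16.6 ± 3.81, a difference of 1.29 ± 0.24 (adjusted p = 9.99e-05). The c,d levels that enter it had shares below those of glia-like cells, so it is not read as a difference in expression between the types.

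The share of cells with a *zfh2* UMI at 24 h APF was 17.7% and 12.3% in T4a, 18.2% and 15.9% in T4b, 14.3% and 9.05% in T5a, and 11.1% and 12.5% in T5b. In the c and d classes it was 2.96 to 6.87%. Other sorted cells of that stage held 167 and 393 CPM, with a UMI in 39.7% and 47.8% of cells, and glia-like cells had a UMI in 12.9% and 9.41%. The c and d classes, T5a in replicate 2 and T5b in replicate 1 lay below the glia-like cells of their library, and the shares of c and d are not read as expression. From 36 h APF on the share over all T4/T5 cells, 1.28 to 7.06%, was below that of the glia-like cells of the same library, 5.41 to 22.8%, and other sorted cells reached 1388 CPM in 36 h replicate 1. No contrast between subtypes was called for *zfh2* after 24 h APF.

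At 72 h APF the libraries disagreed on *zfh2*. Replicate 1 held 23.3 CPM over all T4/T5 cells and replicate 2 3.15, and each class repeated this gap, with 19.9 to 26.1 CPM in replicate 1 and 2.25 to 4.46 in replicate 2. In other sorted cells the values were 233 and 104 CPM and in glia-like cells 154 and 118. The change from 24 to 72 h APF was −0.35 ± 0.77 (adjusted p = 0.713), −2.54 without 72 h replicate 1 (adjusted p = 0.00313) and 0.53 without 72 h replicate 2 (adjusted p = 0.306). The cause of this gap was not tested.

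**Figure D4:**
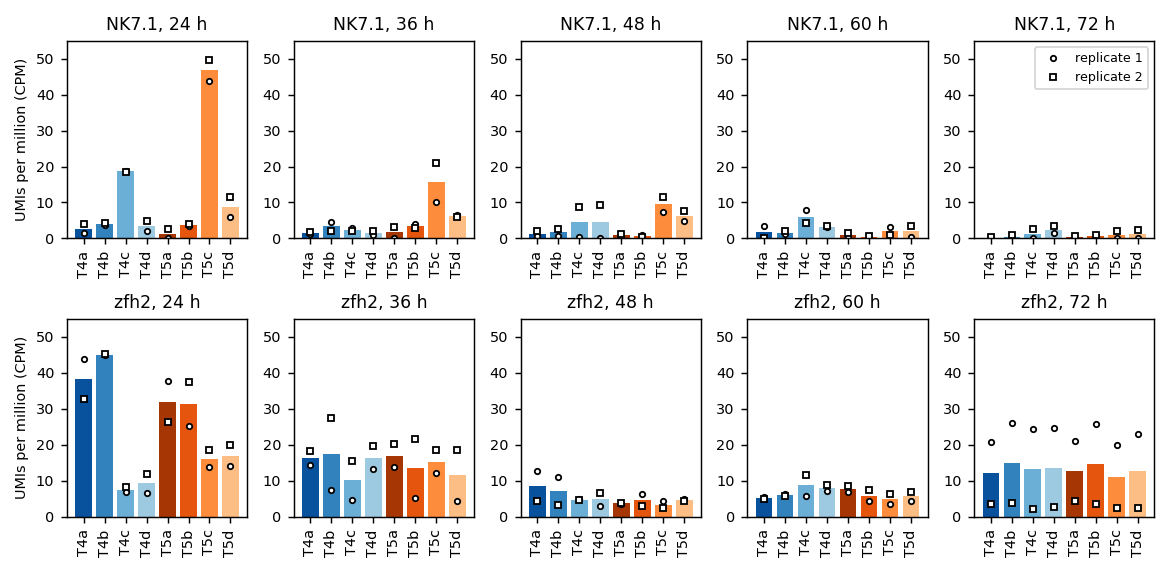
Levels of *NK7.1* (top) and *zfh2* (bottom) in CPM for each T4/T5 subtype at 24, 36, 48, 60 and 72 h APF. Bars are means of the libraries, shown as circles (replicate 1) and squares (replicate 2); *NK7.1* stands out in T5c and T4c at 24 h, *zfh2* in the a and b subtypes at 24 h, and at 72 h the libraries are apart for *zfh2* in every class.

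Between T4 and T5 neurons as types 0, 1, 0, 1 and 0 of the 7 members were called at 24, 36, 48, 60 and 72 h APF, where 2.17%, 2.21%, 5.1%, 6.77% and 6.98% of all genes were called. The gene was *NK7.1* in both cases, lower in T4 at 36 h (−1.36 ± 0.41, adjusted p = 0.0176) and higher in T4 at 60 h (1.29 ± 0.48, adjusted p = 0.0289). Its level at 36 h was 2.25 ± 0.332 CPM in T4 and 6.39 ± 1.91 in T5, and at 60 h 3.61 and 2.39 CPM in the libraries of T4 and 0.925 and 1.56 in those of T5. The former turned to 0.09 without 36 h replicate 2, where the remaining library of that stage held no *NK7.1* UMI in T5a. The latter turned to −0.51 without 60 h replicate 1, where the remaining library of that stage held no *NK7.1* UMI in T4a. Neither call was kept in these fits, although the pooled CPM of T4 and T5 differed in the called direction in both libraries. By an adjusted p under 0.05 alone, without the limit on the fold, 0, 2, 4, 4 and 4 of the 7 members passed, beside 14.9%, 11.5%, 29%, 35.7% and 37.6% of all genes.

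These smaller differences between T4 and T5 took the same direction at neighbouring stages for the widespread genes. *hth* was higher in T4 by 0.22 ± 0.04 at 48 h (adjusted p = 3.47e-06), by 0.24 ± 0.04 at 60 h (adjusted p = 7.51e-07) and by 0.16 ± 0.04 at 72 h APF (adjusted p = 0.00157). *exd* was lower in T4, with −0.16 ± 0.04 at 60 h (adjusted p = 0.000956) and −0.22 ± 0.04 at 72 h (adjusted p = 2.42e-06). *zfh2*, not a widespread gene, was higher in T4 at 48 h (0.60 ± 0.23, adjusted p = 0.0437). Its share was below that of glia-like cells there, so this is not read as a difference in expression. *onecut* was lower in T4 at 48 h (−0.11 ± 0.03, adjusted p = 0.00477) and 72 h (−0.14 ± 0.03, adjusted p = 0.000339). *pdm3* was lower in T4 at 36 h (−0.81 ± 0.28, adjusted p = 0.0471), higher at 48 h (0.91 ± 0.16, adjusted p = 4.52e-06) and lower again at 60 h (−0.17 ± 0.05, adjusted p = 0.00891) and 72 h (−0.35 ± 0.04, adjusted p = 5.39e-12).

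**Figure D5:**
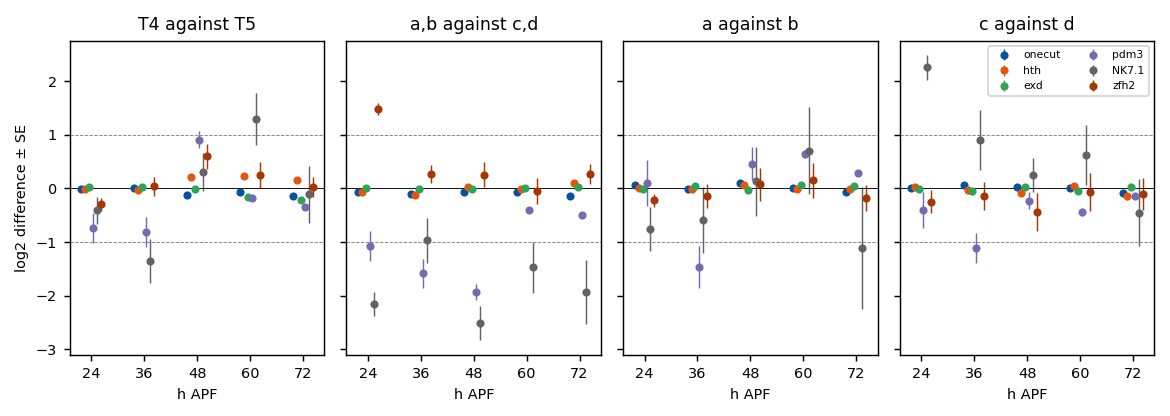
Fitted log2 differences (± SE) of the 6 detected genes between T4 and T5, between a,b and c,d, between a and b and between c and d subtypes at the 5 stages (h APF), with the first-named group minus the second and dashed lines at 2-fold. *NK7.1*, *pdm3* and *zfh2* pass 2-fold in single contrasts, such as *zfh2* with 1.48 for a,b against c,d at 24 h, whereas *onecut*, *hth* and *exd* stay near 0.

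The 37 genes that were not detected left few UMIs in T4/T5 neurons. In 35 of them no library had a UMI in 0.5% or more of the T4/T5 cells, and in 26 none had 0.1%. At most 10 UMIs over all libraries were counted for 23 genes. *B-H1*, *OdsH* and *unc-4*, known from other neurons and sense organs, had 0 UMIs in 46351 cells, which allows a share of up to 0.00647% of cells with a UMI. For 34 of the 37 genes the share was higher in the other sorted cells than in T4/T5 neurons, and in 9 of them, *ap*, *bsh*, *CG11294*, *Lim3*, *Rx*, *scro*, *toy*, *vvl* and *zfh1*, a cluster outside T4/T5 had a UMI in at least 20% of its cells. In contrast, 19 of the 37 genes were under 5% in each of the 24 clusters outside T4/T5, and the larger share elsewhere rests on 1 UMI for *Antp* and *ems*, 2 for *OdsH* and 3 for *Dr*. Since the 37 genes were picked by a low share in T4/T5 neurons, a larger share elsewhere is in part built in. The same count was not made over all genes, so the 34 is not read as a trait of these genes.

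*scro*, an NK2-type gene of optic lobe neurons (FBgn0028993 in the files, chromosome 3L, 24724162 to 24758036, plus strand), had UMIs in 1.83% of T4/T5 cells but in 76.1% of the other sorted cells. Its level over T4/T5 cells was 3.36 and 6.74 CPM in the libraries of 24 h APF, 3.81 and 13.0 in those of 36 h, 1.65 and 3.83 in those of 48 h, 1.13 and 1.21 in those of 60 h, and 0.960 and 0.975 in those of 72 h. In 36 h replicate 2, which has the most other sorted cells (1360), all classes lay between 11.6 and 15.3 CPM. The share in glia-like cells, 0 to 10.7% in a library, was of the same order. It fell by 1.86 ± 0.65 (log2, adjusted p = 0.0372) from 24 to 72 h APF, a call lost when any of 5 single libraries was left out, for example with −1.20 without 24 h replicate 2 (adjusted p = 0.226). Its values are not read as expression in T4/T5 neurons.

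*vnd*, a further NK2-type gene known from the early patterning of the nerve cord, had 190 UMIs and a share of 0.206 to 0.841% of T4/T5 cells in every library, with 0.546% of the other sorted cells. Its highest class was T5a at 60 h APF, with 1.14% of cells in the lower of the libraries. *eve*, a pair-rule gene that also marks motor neurons, had 69 UMIs in T4/T5 cells and 0 in other sorted cells and glia-like cells. The *eve* UMIs came from 6 of the 10 libraries, with 24 in 24 h replicate 2, 18 in 36 h replicate 2, 10 each in 48 h replicate 2 and 60 h replicate 1, 6 in 72 h replicate 2 and 1 in 24 h replicate 1. *nub*, a POU gene, likewise had 15 UMIs in T4/T5 cells and 0 in the other sorted cells. No change of *vnd*, *eve*, *ap* or *vvl*, the undetected genes besides *scro* that entered the fit between stages, passed the test.

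Several homeobox genes known from other optic lobe neurons were found in other cells of the sort, and below the limit of detection in T4/T5 neurons. *ap* had a UMI in 18.7% of the other sorted cells and in 0.158% of T4/T5 cells. A UMI of *bsh*, a gene of medulla and lamina neurons, was found in 6.89% and 0.117%, and of the Pax6 gene *toy* in 9.62% and 0.183%. *vvl* reached 4.55% and 0.136%, *Lim3* 3.76% and 0.0216%, *Vsx1* 3.58% and 0.0367%, and *zfh1*, a relative of *zfh2*, 3.92% and 0.101%. The engrailed pair, *en* and *inv*, gave 1 UMI each, and the iroquois genes *ara*, *caup* and *mirr* gave 1, 4 and 8.

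Among 36 homeobox genes outside the list that have a row in the files, 5 were detected by the same rule: *Lim1*, *ct*, *acj6*, *pros* and *achi*. *pros* was the only 1 of them called between subtypes, lower in a,b at every stage, from −5.65 at 24 h to −7.10 at 60 h APF, the largest of these differences among the homeobox genes tested, members included. Of 10 genes for cofactors of homeodomain proteins 9 were detected. *dac*, which also served to check the names of the clusters and, like *pros*, could take part in the clustering, was higher in the a,b subtypes at each stage (6.31 at 24 h to 7.26 at 48 h). The zinc-finger genes *tsh* and *tio* were higher in a,b at 24 h (2.27 ± 0.53 and 3.66 ± 0.46, adjusted p = 0.000676 and 5.09e-10), and *tsh* was lower in a,b at 48 h (−1.13 ± 0.40, adjusted p = 0.031). Both rose from 24 to 36 h APF by 2.52 and 3.22 and fell by 3.78 and fell by 2.07 from 24 to 72 h. *Chi*, the adaptor of LIM-homeodomain proteins, was higher in T4 at 72 h APF (1.07 ± 0.05, adjusted p = 6.54e-30).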

How the data were processed

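The deposited files hold raw counts of UMIs per gene and barcode, which the authors made with Cell Ranger (version 3) and the Ensembl 97 annotation, and no normalisation had been applied. Barcodes with at least 200 UMIs and at most 10% of mitochondrial or heat-shock UMIs were kept (62584 of 72871). Each stage was clustered with Seurat 5.3.0 (2000 variable genes, 15 principal components, resolution 0.8). Clusters rich in heat-shock UMIs (2860 cells, at 36 and 48 h APF), shallow clusters (2635) and clusters of mostly doublets (2112) were left out. The 50440 cells kept as T4/T5 were clustered again, and further clusters of these kinds were left out. The 5517 barcodes marked as doublets took part in the clustering and were left out of the sums and shares. Clusters were named from membrane genes and *TfAP-2*, 74 of 75 names were the same by transcription factors (which were not barred from the variable genes, so this is no independent check), and 10 clusters (781 cells) stayed unnamed. The exception was a T4d cluster of 409 cells at 60 h APF, mixed by transcription factors. It held 62.9 CPM of *grn* and 111.9 of *side-IV*, compared with 2.02 and 6.05 in another T4d cluster of that stage. T4d at 60 h may thus include c cells, which was not tested. UMIs were summed per class and library (80 sums, 828325 to 8162077 UMIs). Sums were fitted with edgeR 4.0.16 (quasi-likelihood, two-sided), with the library as a block between classes and no block between stages. The libraries are labelled as replicates. P-values between stages measure the spread between libraries. Those between classes measure how class differences vary from library to library, with the spread estimated over all stages together. Shares and limits of 0 cover counting error only. Thinning to 2000 UMIs left out 1563 T4/T5 cells (0.485 to 20.6% of a library). The scripts were tested on simulated data. Positions are from BDGP6.54, release 115. All 43 genes are accounted for, those detected or called are named with values, and those with the largest share or called at 3 or more stages with every library. The genes and lists were chosen with earlier results of these data known. Alternatives included DESeq2 1.42.0, total UMIs as library size, no filter, doublets kept and each library left out.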

Additional observations from a re-analysis of the deposited data

Results flagged for a closer look

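The a,b minus c,d contrast differed between T4 and T5 neurons, by the interaction term of the edgeR fit with Benjamini-Hochberg adjustment over all genes, in 6 cases. This term was fitted with the main settings only, so how it depends on single libraries was not tested. For *NK7.1* at 24 h APF the difference (T4 minus T5, log2) was 1.79 (adjusted p = 0.0158), with 27.2 ± 2.97 CPM in T5c,d and 10.2 ± 1.35 in T4c,d (mean ± SD, n = 2). The shares of all classes lay below those of glia-like cells, so this value is not read as a difference in expression. For *zfh2* at 24 h APF the difference was 1.29 (adjusted p = 9.99e-05), a value that includes c,d levels with shares below those of glia-like cells and is not read as a difference in expression.

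For *pdm3* it was 2.92 at 36 h (adjusted p = 2e-05), 2.14 at 48 h (adjusted p = 4.9e-07), 0.84 at 60 h (adjusted p = 3.7e-09) and 0.48 at 72 h APF (adjusted p = 2.44e-06). At 48 h the lower a,b level stood in T5, with 2.12 ± 0.858 CPM in T5a,b and 7.45 ± 0.963 in T4a,b, whereas at 60 h the c,d levels were 143.5 ± 6.86 CPM in T5 and 99.7 ± 1.89 in T4.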

How the results depend on the processing

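Between T4 and T5 1 member was called, and 0 with no replicate block, 6 by adjusted p alone and 1 to 2 when 1 library was left out (2 without 48 h replicate 1, with *pdm3*). Between a and b 1 was called, and 0 with no replicate block, 0 with doublets kept and 0 to 1 with a library left out (0 without either of 36 h). Between c and d 2 were called, and 1 with no replicate block and 1 to 2 with a library left out (1 without 36 h replicate 2). Between adjacent stages 1 was called, and 4 with no filter (*NK7.1*, *pdm3*, *scro* and *zfh2*), 2 over all barcodes past the stress limits (*Rx* and *pdm3*) and 1 to 2 with a library left out (*zfh2* added without either of 72 h). The counts between a,b and c,d (3) and of detected genes (6) stayed within 1.5 times. Of the settings tried for single genes, 308 kept direction and call, 36 lost the call, 1 gained it and 10 reversed. With 1 library left out, *NK7.1* between T4 and T5 ranged from −1.52 to 0.0863 at 36 h (without 36 h replicate 2) and from −0.506 (without 60 h replicate 1) to 2.33 at 60 h, *pdm3* between a,b and c,d at 36 h from −1.78 to 0.113 (without 36 h replicate 2), *zfh2* from 24 to 72 h from −2.54 (without 72 h replicate 1) to 0.532 (without 72 h replicate 2) and *exd* from −0.15 to 0.152. *pdm3* at 36 against 24 h turned to −0.282 over all barcodes, and *exd* from 24 to 72 h to −0.564 with total UMIs, −0.0346 with no filter, and −0.0416, −0.0118 and −0.15 without 24 h replicate 2, 48 h replicate 2 and 72 h replicate 1. The causes were not tested. Classes of a library are paired by their library. The replicate numbers of different stages were not treated as a pairing. Deviations of same-numbered libraries correlated at −0.624 to 0.837 over 5265 genes, with 4 of 10 pairs of stages over 0.1. Correlations were 0.489 to 0.837 among 36, 48 and 72 h APF, and −0.624 to −0.529 between these stages and 60 h. What these libraries share was not tested. With the replicate block 1 member was called between adjacent stages, as without it. The (c minus d) difference between T4 and T5 was chosen after seeing the data.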
